A study of Mus musculus with 2 samples.

Results

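Transcripts of 10 immune checkpoint and costimulatory ligand genes were examined in single alveolar macrophages (AMs) of the mouse lung. The members were *Cd274*, *Pdcd1lg2*, *Cd80*, *Cd86*, *Cd40*, *Lgals9*, *Havcr2*, *Vsir*, *Sirpa* and *Pvr*, which were chosen by name and found by their Ensembl identifiers among the 32285 genes listed for both libraries. All 10 had at least 20 UMIs (unique molecular identifiers, which count single captured RNA molecules) over both libraries. AMs are the resident macrophages of the air spaces. The study sorted them from the lungs of C57BL/6 mice at postnatal week 10, described as female, in 2 conditions. The control library came from control mice, which the study describes as given PBS in place of tumor cells, and the tumor library came from mice that received Lewis lung carcinoma cells (LLC, a mouse lung cancer line, here expressing the red fluorescent protein tdTomato) in the left lung. AMs were isolated by flow cytometry, and the study defined them as CD45+, autofluorescent, Siglec-F+ and F4/80+ cells. The labels name no mutant allele for either library, the LLC tumor is a transplant of 1 cell line, and the study states that experimental and control mice were bred separately. How many mice were pooled in each library, and the day of the sort, were not given in the sources used here. The study states that it assigned barcodes to samples from hashtag reads, which were not used here, so every barcode has the condition of the library that holds it, as the labels name it, and barcodes that the hashtags would assign otherwise cannot be seen.

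Each condition was 1 library, so the condition cannot be told apart from the library, the mice, their breeding or the day. No test between the conditions was possible, no p-value is given, and all intervals are at 95% and cover counting error only. After a filter of at least 500 detected genes and at most 10% mitochondrial UMIs, the control library held 6185 of 8485 barcodes with 64850143 UMIs and a median of 10370 UMIs per barcode. The tumor library held 7666 of 9175 barcodes with 68801889 UMIs and a median of 8264 UMIs. Of the kept barcodes, 17 barcode sequences were found in both libraries. All 18 AM markers were detected in both libraries, and their summed level was 26995 CPM (counts per 1000000 UMIs of the library) in the control library and 24426 CPM in the tumor library. Much of this sum was *Chil3* (11657 and 10519 CPM). Of the 18, 5 were at least 1.5-fold lower in the tumor library, such as *Marco* (585 and 207 CPM) and *Ear1* (516 and 286 CPM), and 1 was higher. Siglec-F itself, the marker of the sort, had a *Siglecf* level of 137 and 102 CPM. Markers of other states moved with the condition as well. Of 17 markers of monocyte-derived macrophages, 16 were at least 1.5-fold higher in the tumor library, from a summed 779 to 2621 CPM, with *Apoe* at 25.6 and 603 CPM and *C1qa* at 0.14 and 9.53 CPM. All 14 interferon response genes were higher at 1.5-fold, from 358 to 913 CPM, as were 7 of 11 inflammatory genes (1929 to 3858 CPM) and 5 of 9 stress genes (2066 to 3241 CPM). Of 14 cycling genes, 13 were at least 1.5-fold lower, from 409 to 200.2 CPM. The part of these states, of depth and of the library in the results below was not tested, except where levels are given within clusters or at matched depth.

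Macrophages and other antigen presenting cells regulate T cells through paired signals at the cell surface. CD80 and CD86 engage CD28 to costimulate a T cell or CTLA-4 to restrain it, PD-L1 and PD-L2 engage the inhibitory receptor PD-1, and PVR engages the inhibitory receptor TIGIT as well as the activating receptor CD226. Galectin-9 binds TIM-3, VISTA restrains T cells and is abundant on myeloid cells, and SIRPα on the macrophage receives the inhibitory signal of CD47 that limits phagocytosis.

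In the tumor library, *Cd274* (PD-L1), *Lgals9* (galectin-9), *Pvr* and the scarce *Cd40* were at least 1.5-fold higher than in the control library, and no member was lower by that limit. *Cd86* and *Vsir* were higher by less, *Sirpa*, *Cd80* and *Havcr2* were within 1.13-fold, and *Pdcd1lg2* (PD-L2) was 1.32-fold lower. *Cd274* was at least 1.5-fold higher in 8 of the 10 clusters that held at least 50 cells of each library, and higher by less in the others. Of the genes tested in at least 8 of these clusters, 1.05% were higher by this limit in 8 or more. *Cd86* passed the limit in 1 of the 10 clusters, with a median log2 ratio of -0.10 over them. Over all genes with at least 20 UMIs, 9.79% of 13581 were at least 1.5-fold higher and 13.7% at least 1.5-fold lower in the tumor library. The members had a median log2 ratio (tumor to control) of 0.44, and all these genes one of -0.07. Without 4 clusters that were mostly of the tumor library (B, F, G and L, described below), a limit chosen after seeing the data, 2 members were higher, *Cd274* and *Pvr*, while *Lgals9* had a log2 ratio of 0.48 and *Cd86* one of -0.28. At a limit of 2-fold, *Cd40* and *Pvr* were higher, beside 6.02% of genes higher and 6.91% lower.

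The promoters of the PD-1 ligand genes and of *Lgals9* are shown because *Cd274* and *Pdcd1lg2* are neighbours on chromosome 19, 22823 bases apart, and went in opposite directions between the libraries, while *Lgals9* went with *Cd274*. The 250 bases upstream of the start annotated by RefSeq (build GRCm38.p6) are printed 5′ to 3′ on the strand of the gene, with motif matches in capitals. They lie at chr19:29367188-29367437 (plus strand) for *Cd274*, chr19:29410669-29410918 (plus strand) for *Pdcd1lg2* and chr11:78984925-78985174 (minus strand) for *Lgals9*.
Cd274: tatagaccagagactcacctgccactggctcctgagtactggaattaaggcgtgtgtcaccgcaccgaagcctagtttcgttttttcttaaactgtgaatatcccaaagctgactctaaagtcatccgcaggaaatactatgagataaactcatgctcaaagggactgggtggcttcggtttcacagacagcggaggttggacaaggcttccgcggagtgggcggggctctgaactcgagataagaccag
Pdcd1lg2: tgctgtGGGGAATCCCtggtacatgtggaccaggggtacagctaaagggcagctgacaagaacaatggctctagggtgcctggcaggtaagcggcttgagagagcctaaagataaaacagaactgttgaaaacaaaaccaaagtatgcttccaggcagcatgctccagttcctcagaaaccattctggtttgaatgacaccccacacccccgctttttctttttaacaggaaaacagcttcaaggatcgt
Lgals9: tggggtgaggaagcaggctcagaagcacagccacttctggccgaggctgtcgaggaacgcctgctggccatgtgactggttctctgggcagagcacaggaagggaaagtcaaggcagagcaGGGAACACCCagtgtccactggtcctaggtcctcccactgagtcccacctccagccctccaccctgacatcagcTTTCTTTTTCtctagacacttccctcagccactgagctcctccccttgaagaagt

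A set of 3 letter patterns were searched on both strands, namely TTCNNNGAA (the GAS element of STAT factors), GAAA and GAAA parted by NN (a pair of the repeats in the interferon-stimulated response element) and GGGA and CC parted by NNNN (an NF-κB pattern). These were present in 7.02%, 2.98% and 17.6% of 32851 RefSeq promoter windows of the same length. The *Cd274* window held none of them. The *Pdcd1lg2* window held an NF-κB match from 244 to 235 bases before the start. The *Lgals9* window held an NF-κB match from 129 to 120 bases and an interferon-type match from 55 to 46 bases before the start. An entry was found for 6 of the 10 members, and of the others *Cd80* held 1 NF-κB match from 210 to 201 bases before the start, while *Havcr2* and *Vsir* held no match. A match describes the letters only.

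*Cd274* encodes PD-L1, the main ligand of PD-1, which interferons induce on many cell types (ENSMUSG00000016496, build GRCm38, chr19:29367455-29388095, plus strand). Its level was 75.6 CPM in the control library (interval 73.5 to 77.8, from 4904 UMIs) and 148.5 CPM in the tumor library (146 to 151, from 10218 UMIs). The tumor library was 1.96-fold higher, a log2 ratio of 0.97 (0.92 to 1.02). The gene overlaps an antisense gene with 33 and 43 UMIs in the libraries. *Pdcd1lg2* encodes PD-L2, the other PD-1 ligand, which is more restricted to antigen presenting cells (ENSMUSG00000016498, chr19:29410919-29471161, plus strand). Its level was 10.5 CPM in the control library (9.74 to 11.3, 682 UMIs) and 7.96 CPM in the tumor library (7.31 to 8.66, 548 UMIs). The log2 ratio was -0.40 (-0.57 to -0.24). The antisense gene *A930007I19Rik*, which overlaps its 3′ part, had 3036 and 1911 UMIs, more than *Pdcd1lg2* itself.

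*Cd80* and *Cd86*, the ligands of CD28 and CTLA-4, lie on chromosome 16 (ENSMUSG00000075122, chr16:38455561-38496335, plus strand, and ENSMUSG00000022901, chr16:36603869-36666081, minus strand). *Cd80* was at 24.1 CPM in the control library (22.97 to 25.4, 1566 UMIs) and 21.5 CPM in the tumor library (20.4 to 22.6, 1476 UMIs), a log2 ratio of -0.17 (-0.27 to -0.07). *Cd86* was at 14.4 CPM in the control library (13.5 to 15.3, 933 UMIs) and 20.5 CPM in the tumor library (19.5 to 21.6, 1413 UMIs), a log2 ratio of 0.51 (0.39 to 0.63). Both differences were below 1.5-fold, and without clusters B, F, G and L both turned their sign, to log2 ratios of 0.03 for *Cd80* and -0.28 for *Cd86*.

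*Cd40* encodes the receptor by which CD4+ T cells license antigen presenting cells (ENSMUSG00000017652, chr2:165055627-165072948, plus strand). It was close to the limit of detection, with 8 UMIs in 5 barcodes of the control library (0.12 CPM, 0.05 to 0.24) and 35 UMIs in 30 barcodes of the tumor library (0.51 CPM, 0.35 to 0.71). The ratio was 4.12-fold with a wide counting interval of 1.88 to 10.3. Of these barcodes, 2 of 5 and 4 of 30 had under 5000 CPM of AM markers, and the median in the 30 tumor barcodes was 19639 CPM. In the control library, 6 of the 8 UMIs came from 3 barcodes of an interferon cluster (cluster L, below), and 1 of these, with 3 UMIs, had at least 3 dendritic cell markers and under 5000 CPM of AM markers. In the tumor library, 13 of the 30 barcodes were in cluster L and 9 in cluster F, and 3 were in cluster N, the small cluster of other cell types.

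*Lgals9* encodes galectin-9, a galectin with T cell inhibitory activity (ENSMUSG00000001123, chr11:78962974-78984946, minus strand). It was at 49.2 CPM in the control library (47.5 to 50.9, 3190 UMIs) and 89.6 CPM in the tumor library (87.4 to 91.9, 6167 UMIs). The tumor library was 1.82-fold higher, a log2 ratio of 0.87 (0.80 to 0.93). *Havcr2* encodes TIM-3, a receptor of galectin-9 that is found on exhausted T cells and on myeloid cells (ENSMUSG00000020399, chr11:46454935-46481255, plus strand). It was at 75.9 CPM in the control library (73.8 to 78.0, 4921 UMIs) and 67.8 CPM in the tumor library (65.9 to 69.8, 4668 UMIs), a log2 ratio of -0.16 (-0.22 to -0.10). These are sums over each library, and within clusters *Havcr2* was not lower in most (below).

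*Vsir* encodes VISTA (ENSMUSG00000020101, chr10:60346851-60372684, plus strand). It was at 76.8 CPM in the control library (74.7 to 79.0, 4983 UMIs) and 98.95 CPM in the tumor library (96.6 to 101.3, 6808 UMIs), a log2 ratio of 0.36 (0.31 to 0.42). The gene lies within the span of *Cdh23* on the opposite strand, which had 3 and 5 UMIs. *Sirpa* encodes SIRPα (ENSMUSG00000037902, chr2:129592835-129632228, plus strand). It was at 909 CPM in the control library (901 to 916, 58935 UMIs) and 916 CPM in the tumor library (909 to 923, 63018 UMIs), a 1.01-fold ratio (0.997 to 1.02) whose interval included 1. *Sirpa* shares long stretches with *Sirpb1a*, *Sirpb1b* and *Sirpb1c*, so its count is uncertain where reads could not be placed uniquely.

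*Pvr* encodes the poliovirus receptor CD155, the ligand of TIGIT (ENSMUSG00000040511, chr7:19903578-19921160, minus strand). It was at 2.68 CPM in the control library (2.30 to 3.11, 174 UMIs) and 10.4 CPM in the tumor library (9.67 to 11.2, 717 UMIs). The tumor library was 3.88-fold higher, a log2 ratio of 1.96 (1.72 to 2.205), which was 1.20 without clusters B, F, G and L. The ratio of *Cd40* had an interval that included this value.

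**Figure D1:**
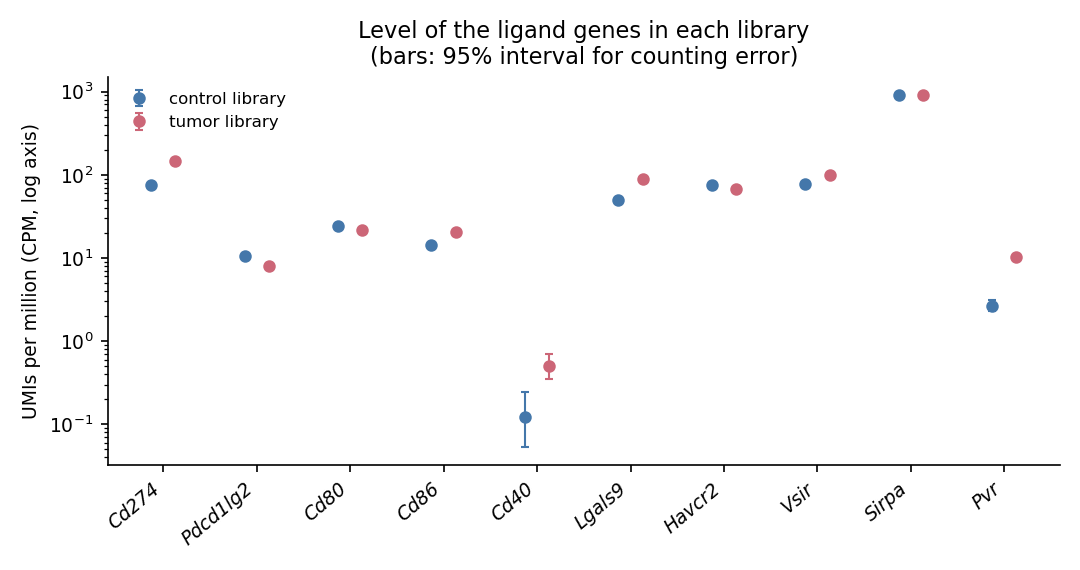
Level of each member in CPM (log axis) in the control and the tumor library, with exact Poisson intervals at 95% for counting error. *Cd274* stands at 75.6 and 148.5 CPM and *Pvr* at 2.68 and 10.4 CPM, while both *Sirpa* points lie at about the same height. Levels are read between libraries, not between genes.

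Since the libraries differed in depth, each cell was thinned at random to 3800 UMIs, which left out 595 shallower control cells and 729 shallower tumor cells and kept 5590 and 6937 cells. At this depth, *Cd274* was detected in 25.1% (24.0 to 26.3) of the control AMs and in 41.2% (40.1 to 42.4) of the tumor AMs, a difference of 16.1 percentage points (14.5 to 17.8). Without thinning the shares were 47.7% and 63.5%. The cells with a *Cd274* UMI also held more of them, 1.20 thinned UMIs on average in the control library and 1.41 in the tumor library. *Lgals9* was detected in 17.0% (16.02 to 18.0) and 27.0% (25.99 to 28.1), against 37.0% and 46.6% unthinned. *Pvr* was detected in 0.91% (0.68 to 1.20) and 3.36% (2.95 to 3.81), against 2.62% and 8.10% unthinned. These were the 3 members whose share was at least 1.5-fold higher, beside 7.48% of all genes tested, and none was lower, beside 10.4%. By level in the thinned cells the same count of 3 was higher, beside 8.56% of genes, and 0 were lower, beside 11% of genes.

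Of the other members at matched depth, *Vsir* had a UMI in 25.7% of control and 30.1% of tumor cells, and *Cd86* in 5.04% and 6.85%. Both differences lay above 0 by their counting intervals, at 4.40 percentage points (2.81 to 5.98) and 1.80 percentage points (0.96 to 2.64). For *Vsir* this draw was below all 20 other seeds of the thinning, which gave 4.63 to 6.38 percentage points. Without thinning its difference was 1.22 percentage points. *Havcr2* (24.2% and 22.3%) and *Pdcd1lg2* (3.88% and 3.17%) were lower in the tumor library, by 1.88 and 0.71 percentage points. The intervals of these differences were -3.38 to -0.38 and -1.38 to -0.05. Over 20 other seeds of the thinning the differences ran from -3.72 to -1.82 and from -1.07 to -0.24. With at least 2 UMIs required, that of *Pdcd1lg2* was -0.03. *Cd80* (8.43% and 8.22%) and *Sirpa* (95.9% and 95.9%) had differences whose intervals included 0, from -1.20 to 0.77 and from -0.69 to 0.73 percentage points. Over 20 other seeds the difference of *Cd80* ran from -1.27 to -0.19, so this draw was near the top of that range. Without thinning its shares were 20.8% and 16.3%. That of *Sirpa* ran from -0.78 to 0.36 over the seeds. *Cd40* was seen in 3 of 5590 control cells and 13 of 6937 tumor cells, too few for the limit of 20 positive cells. Leaving out *Sirpa*, a thinned control cell had UMIs of 1.10 members on average and a thinned tumor cell of 1.42, and the share of cells with exactly 3 of them was 6.23% in the control and 11.7% in the tumor library.

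**Figure D2:**
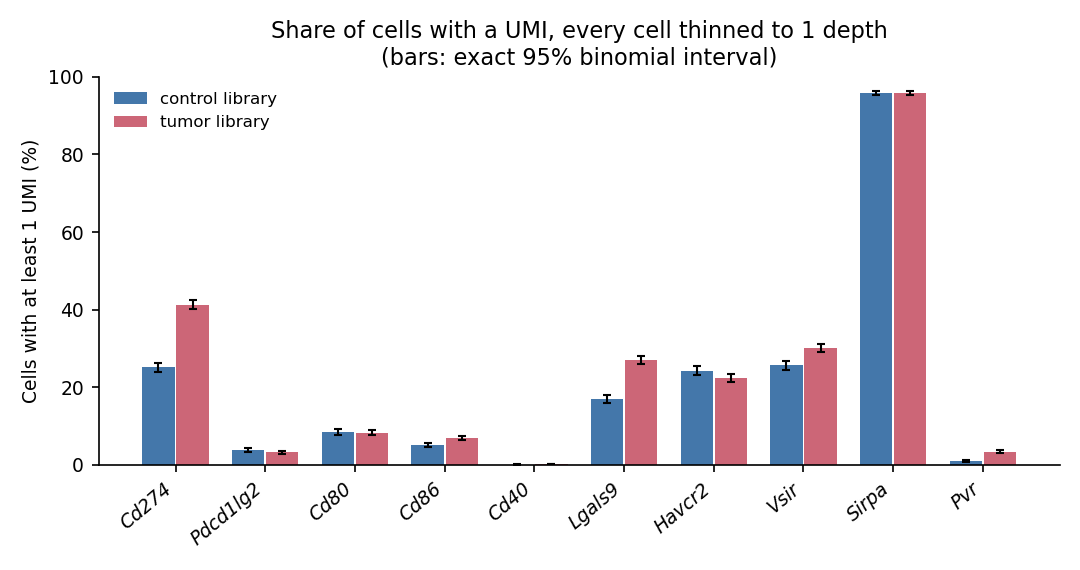
Share of cells with at least 1 UMI of each member (percent) after every cell was thinned to 3800 UMIs, in the control and the tumor library, with exact binomial intervals at 95%. *Cd274* stands at 25.1% and 41.2%, *Lgals9* at 17.0% and 27.0%, and *Sirpa* at 95.9% in both.

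As a check against free RNA, barcodes with at least 3 markers of fibroblasts, endothelial cells, epithelial cells, T or NK cells, B or plasma cells, neutrophils or erythroid cells and under 5000 CPM of AM markers were taken, 17 in the control library (median 3671 UMIs) and 22 in the tumor library (median 8444 UMIs). This limit was set after the data were seen. A *Cd274* UMI was present in 1 and 3 of them, or 5.88% and 13.6%, against 47.9% and 63.7% of the other barcodes at median depths of 10377 and 8264 UMIs. *Cd80* was present in 0 and 0, which allows shares of up to 19.5% and 15.4%, against 20.8% and 16.3%. *Cd86* was present in 1 (5.88%, 0.15 to 28.7) and 0 (up to 15.4%), against 12.6% and 15.2%. *Havcr2* was present in 1 and 0 (against 50.1% and 41.8%) and *Vsir* in 2 and 4 (11.8% and 18.2%, against 51.4% and 52.6%). *Pdcd1lg2* was present in 0 (up to 19.5%) and 1 (4.55%, 0.12 to 22.8), against 9.97% and 6.72%. *Sirpa* was present in 3 and 4, or 17.6% and 18.2%, against 98.3% in both. For *Lgals9* the shares were 11.8% and 40.9%, and for *Pvr* 5.88% and 31.8%, so in the tumor library these non-AM barcodes were close to the other barcodes for *Lgals9* (46.6%) and above them for *Pvr* (8.03%). In the tumor library both kinds of barcode had a like median depth. By type, the medians of the reference barcodes ran from 3629 UMIs (B or plasma cell markers) to 15655 UMIs (fibroblast markers). There the shares of *Cd274*, *Havcr2*, *Vsir* and *Sirpa* lay above the intervals of the reference barcodes. That of *Cd80* (16.3%) lay only just above its limit of 15.4%. The shares of *Pdcd1lg2*, *Cd86*, *Lgals9* and *Pvr* were not clearly separated from those of the reference barcodes. The reference barcodes may hold transcripts of their own cells, so the check cannot tell free RNA from expression there. In the tumor library, *Pvr* was present in 4 of them with fibroblast and 3 with endothelial markers, and *Cd40* in 2 and 1. In the control library the reference barcodes were shallower, and at matched depth only the share of *Sirpa* (95.9%) lay above their interval, so the check says little of the other members there. *Cd40* was present in 1 and 3 of these barcodes and in 0.06% and 0.35% of the others, so the share in AMs was below that in the reference barcodes. Fibroblast markers summed to 2.78 CPM in the control and 36.2 CPM in the tumor library. With the barcodes that had 3 markers of another cell type left out, the log2 ratios were 0.88 for *Lgals9*, 1.96 for *Pvr* and 2.03 for *Cd40*.

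The cells of both libraries were grouped into 13 clusters of at least 50 cells and a small cluster N, without the members among the genes used. Clusters are given by letter and by their leading genes. Cluster A (2078 control and 938 tumor cells) was led by lipid-handling genes such as *Acaa1b* and *Fabp1* with *Marco*, cluster E (975 and 81) by the MHC class II genes *Cd74* and *H2-Aa*, and cluster K (246 and 243) by *Ear1* and *Marco*. Cluster C (607 and 1094) was led by the heat shock gene *Hspa1b* and cluster D (687 and 860) by *Cxcl2*, *Il1a* and *Tnf*. Cluster H (404 and 234) was led by *Mmp12*, cluster J (362 and 178) by mitotic genes such as *Top2a* and cluster M (188 and 36) by *Slc40a1* and *Hmox1*. Clusters B (85 and 2120, *Il1b*, *S100a4*, *S100a6*), F (20 and 754, *Apoe*, *Slamf7*, *Spp1*), G (70 and 590, *Ccl4*, *Inhba*) and L (15 and 314, *Cxcl9*, *Irf7*, *Isg15*) were mostly of the tumor library, so for these 4 a state of the cells cannot be told apart from the library itself. Cluster I (426 and 198) was led by nuclear RNAs such as *Neat1* and *Malat1* at a median of only 2386 UMIs, and is not named.

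Among the clusters with at least 50 cells in a library, cluster I had the highest levels of *Cd80*, *Cd86*, *Havcr2*, *Sirpa* and *Pvr* in both libraries. In the tumor library these levels were 69.4, 64.6, 169.8, 1301 and 33.5 CPM, and *Cd274* was also highest there, at 232 CPM (188 to 283). This cluster held 198 tumor cells of low depth and 0.95% of the *Cd274* UMIs of its library, so its values rest on few molecules, such as 14 UMIs for *Pvr*. Among the deeper clusters the members separated. *Cd274* was highest in cluster B, at 135.6 CPM in the control library (111 to 164) and 187.9 CPM in the tumor library (181 to 195), and lowest in the mitotic cluster J, at 54.5 and 104.0 CPM, a level that cluster E shared in the tumor library (104.3 CPM). At matched depth, 49.0% of the tumor cells of cluster B (46.7 to 51.2) had a *Cd274* UMI.

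*Cd86* was also highest in clusters B (31.5 CPM), F (29.8 CPM) and L (25.7 CPM) of the tumor library, all above the 7.50 to 18.96 CPM of clusters A, C, D, E, G, H, J and K. Clusters B, F, G and L together held 49.3% of the tumor cells and 74.6% of the *Cd86* UMIs, 59.9% of the *Cd274* UMIs and 74.3% of the *Pvr* UMIs of that library. Of its 68801889 UMIs of all genes, B held 16896456, F 9507050, G 6960746 and L 4170889, a larger share than that of cells. Against all UMIs each excess is thus smaller than against cells, and that of *Cd274* is slight. *Lgals9* was highest in clusters F (125 CPM, 118 to 133) and L (116 CPM, 106 to 127), which do not differ beyond their intervals, and in G (111 CPM). *Vsir* was highest in clusters F (124 CPM) and B (122 CPM), which again overlap, and lowest in cluster J (46.9 CPM). *Pvr* was at 16.3 CPM in F and 15.98 CPM in B and at 1.32 CPM in K (0.27 to 3.87).

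*Cd80* followed another order. Outside cluster I, it was highest in cluster A (37.2 CPM, 32.7 to 42.2) and cluster D (35.3 CPM, 31.0 to 39.98) of the tumor library, and low in F (11.3 CPM) and K (6.61 CPM). *Sirpa* was likewise high in A (1154 CPM) and D (1104 CPM) and lowest in F (640 CPM) and L (647 CPM). *Havcr2* varied least, between 59.6 CPM in cluster G and 79.7 CPM in cluster A, cluster I left out. *Pdcd1lg2* was highest in cluster E of the tumor library (21.2 CPM, but only 13 UMIs, 11.3 to 36.2), an order that 6 of 7 other clusterings did not keep, and lowest in L (4.08 CPM, 2.37 to 6.53). *Cd40* was at 3.60 CPM in cluster L (2.01 to 5.93, 15 UMIs) and 1.05 CPM in cluster F (0.50 to 1.93).

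**Figure D3:**
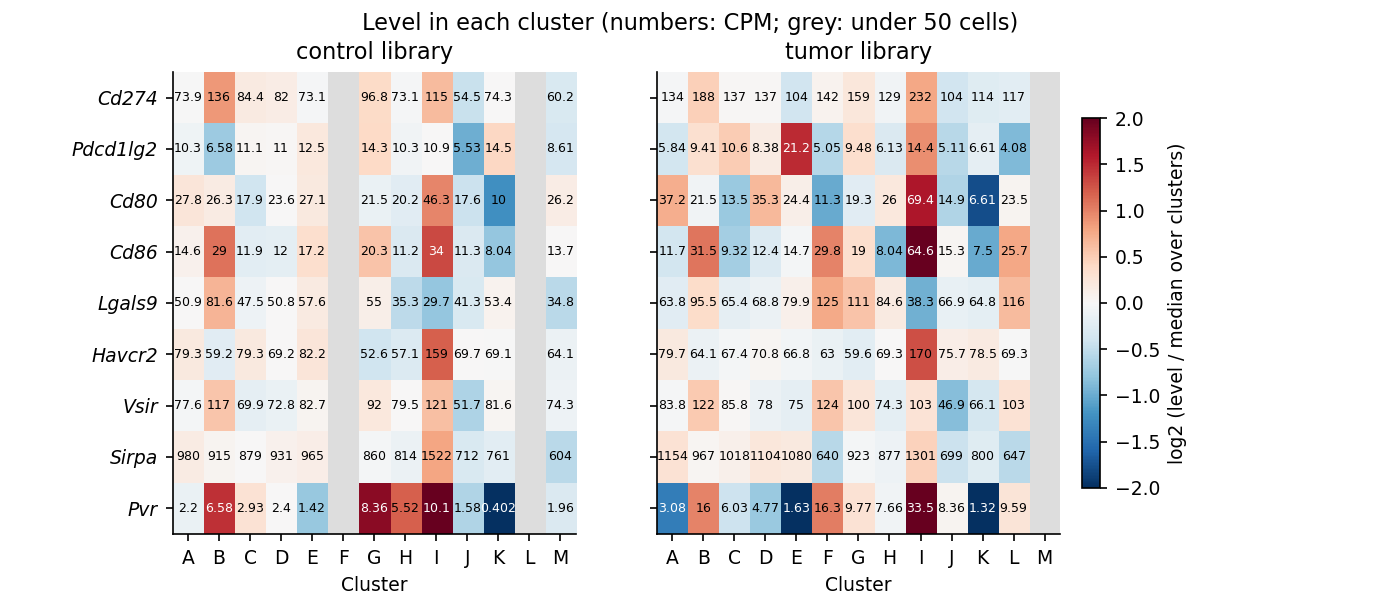
Level of each member except *Cd40* in each cluster, with control cells on the left and tumor cells on the right. Numbers are CPM, colours are the log2 of the level over the median of the clusters (colours end at -2 and 2), and grey marks clusters with under 50 cells in that library. *Cd274* is at 188 CPM in cluster B and 104 CPM in cluster J of the tumor library, and *Cd80* at 37.2 CPM in A and 6.61 CPM in K.

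Within the 10 clusters with at least 50 cells of each library, *Cd274* was at least 1.5-fold higher in tumor cells in 8 (A, C, D, G, H, I, J and K), and 1.39-fold and 1.43-fold higher in B and E. The log2 ratios lay between 0.47 and 1.01 with a median of 0.73, and no interval reached 0. In cluster A, which held many cells of both libraries, the level was 73.9 CPM in control cells and 133.9 CPM in tumor cells. Among genes measured in at least 8 of these clusters, 1.05% of 9364 were at least 1.5-fold higher in 8 or more. *Pvr* was higher by this limit in 5 of the 8 clusters with enough UMIs (B, C, D, I and J, median log2 ratio 1.02), beside 3.49% of genes higher in 5 or more. *Lgals9* was higher in 3 of 10 (G, H and J, with log2 ratios of 1.01, 1.26 and 0.70) and 1.17-fold to 1.39-fold higher in the other clusters, with intervals that included 0 in B, I and K, beside 9.25% of genes higher in 3 or more.

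The other members did not show this. *Cd86* was at least 1.5-fold higher only in cluster I (log2 ratio 0.93) and had a median log2 ratio of -0.10 over the 10 clusters. *Vsir* (median -0.02), *Sirpa* (0.10) and *Havcr2* (0.10) passed the limit in no cluster in either direction. *Cd80* was past the limit only in cluster K, where it was lower, from 25 to 15 UMIs, with an interval of -1.63 to 0.38 on the log2 scale. By less than the limit it was higher in clusters A and D, with log2 ratios of 0.42 (0.20 to 0.64) and 0.58 (0.30 to 0.86), and lower in cluster C, with -0.41 (-0.78 to -0.03). In the other clusters its intervals included 0. *Pdcd1lg2* was at least 1.5-fold lower in 4 clusters (A, G, H and K, with intervals that included 0 in G and H), beside 4.29% of genes lower in 4 or more, and higher in cluster E, where the interval of its log2 ratio of 0.76 ran from -0.19 to 1.59. *Cd40* had too few UMIs in every cluster.

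**Figure D4:**
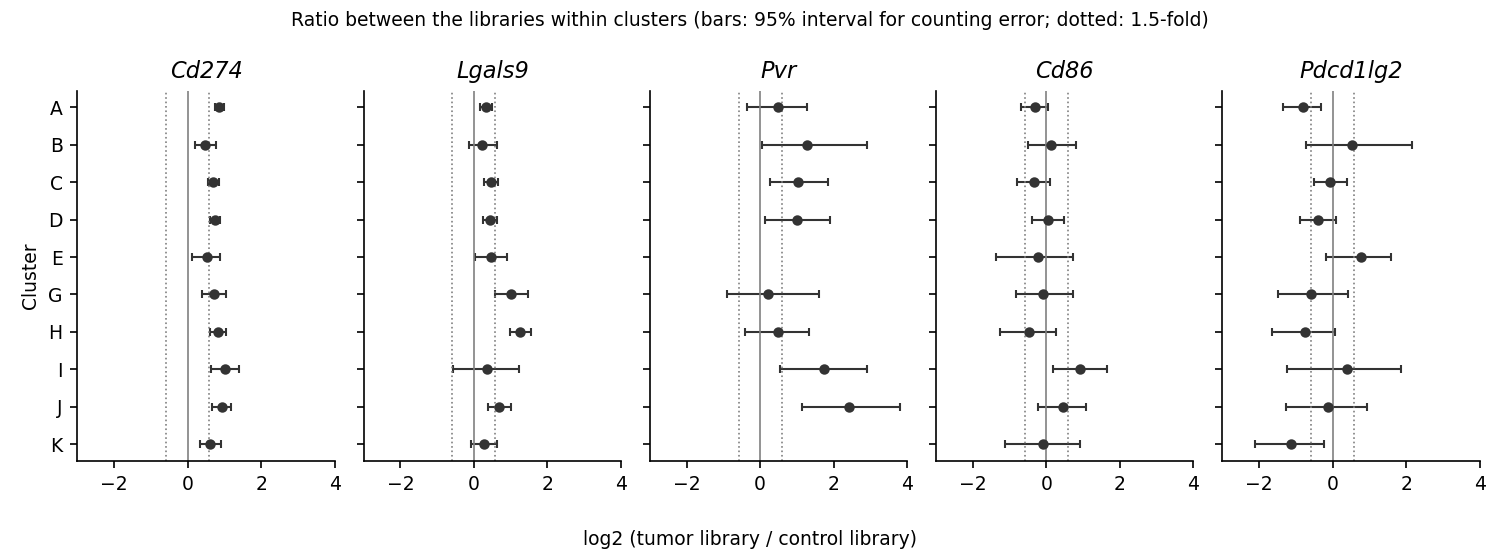
Log2 ratio of the tumor over the control library within each of the 10 clusters with at least 50 cells of both, for *Cd274*, *Lgals9*, *Pvr*, *Cd86* and *Pdcd1lg2*, with exact intervals at 95% for counting error. All *Cd274* points lie between 0.47 and 1.01, *Cd86* points lie on both sides of 0, and clusters with under 20 UMIs are left out.

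The ratios over these 10 clusters were also recomputed with 1 component held fixed. With each cluster given its control share of UMIs, so that only the levels within clusters differed, the log2 ratio of *Cd274* was 0.76, and with the control levels and only the cluster shares of the tumor library it was 0.36, against 1.004 in all. For *Lgals9* these values were 0.50 and 0.26 against 0.73, and for *Pvr* 0.93 and 0.78 against 1.78. *Cd80* had 0.24 from the levels and -0.07 from the shares against -0.05. For *Cd86* the order was turned, with -0.09 from the levels and 0.39 from the shares against 0.40. *Vsir* likewise had 0.03 from the levels and 0.22 from the shares against 0.30. Clusters B and G, which held 85 and 70 control cells, had *Cd86* at 29.0 and 20.3 CPM and *Vsir* at 117 and 92.0 CPM in the control library, against 14.6 and 77.6 CPM in cluster A. The intervals of cluster B (18.1 to 43.8 for *Cd86* and 94.1 to 144 for *Vsir*) lay above those of cluster A, and those of cluster G (11.8 to 32.5 and 72.6 to 115) did not.

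Detection of 1 member said little about detection of another in the same cell. At matched depth, of the 45 pairs of members, 27 in the control and 31 in the tumor library had an expected number of cells with both of at least 20, and the observed number was 0.90 to 1.43 times and 0.87 to 1.24 times the expected one, with medians of 1.01 and 1.003. The highest pair in the control library was *Cd80* with *Cd86*, the ligands of CD28, with 34 cells against 23.8 expected. In the tumor library this pair had 37 cells against 39.0 expected. *Cd274* and *Vsir* were together in 913 tumor cells against 861 expected, and *Cd274* and *Lgals9* in 770 against 773. Most positive cells held a single UMI (69.6% of those with *Cd274* in the tumor library), so weak relations between members would not be detectable at this depth.

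For genes that reached 100 CPM in the positive cells, the largest ratios between cells with and without a UMI of a member were listed per library. Both the filter and the order used the positive cells, so these ratios, here and in the next paragraph, are large by selection. They are descriptions, and a relation between the genes was not tested. Tumor cells with *Cd86* had 2.56-fold more *Apoe*, a lipoprotein of monocyte-derived and lipid-loaded macrophages (1021 against 398 CPM), 1.82-fold more *H2-Ab1* and *Cd74*, both of the MHC class II pathway, and 1.72-fold more *S100a4*. Control cells with *Cd86* had 2.06-fold more *H2-Aa* and 2.09-fold more *S100a6*. Tumor cells with *Pvr* had 2.81-fold more *Ifitm3*, an interferon-induced membrane protein, 2.09-fold more *H2-Ab1* and 1.98-fold more *S100a6*. Tumor cells with *Lgals9* had 1.58-fold more *Ifi27l2a* and 1.34-fold more *Bst2*, both interferon-stimulated genes.

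In control cells with *Cd274* the leading gene was *Il1b*, an inflammatory cytokine, at 1.56-fold (185 against 119 CPM), and in the tumor library *Vps37b* at 1.26-fold and *Il1b* at 1.22-fold. Control cells with *Cd80* had 1.56-fold more *H2-Aa*, and tumor cells with *Cd80* 1.49-fold more *Pmepa1* and 1.40-fold more *Inhba*. Cells with *Vsir* had 1.64-fold more *Mmp12* in the control and 1.57-fold more *Apoe* in the tumor library. Tumor cells with *Pdcd1lg2* had 1.47-fold more *Tnf*, and control cells with it 1.53-fold more *Ccl3*.

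Over the 23 cluster and library units of at least 50 cells, the gene whose log2 level was most like that of *Cd274* was *Hk2*, the glycolytic enzyme hexokinase 2 (Pearson's r = 0.91), followed by *Mfsd7a* and *Galns*. For *Lgals9* it was *Ldha*, the glycolytic enzyme lactate dehydrogenase A (0.91), then *H2-T22* and *Anxa6*. For *Pvr* the genes were *Tpcn2* (0.92) and *Adam8*, for *Cd86* *Itga4* (0.90), *Itpr1* and *Plxnd1*, and for *Vsir* *Rab11fip5* (0.88), *Cyth4* and *H13*. *Cd80* was most like *Usp16* (0.92), *Zbtb7a* and *Mef2d*, *Sirpa* like *Myo7a* (0.96), *Aplp2* and *Nceh1*, *Havcr2* like the mitochondrial *mt-Nd1* (0.92), *Gm43813* and *Tmem87a*, and *Pdcd1lg2* like *Mknk1* (0.82), *Prr14* and *Fam114a2*. These were the closest of 9321 genes, the units share libraries and differ in depth, and the values are descriptions. Among the members, *Pvr* went most with *Cd274* (0.77) and *Cd86* (0.76), and *Lgals9* went against *Havcr2* (-0.47).

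Other genes of the same pathways were compared by lists, whose counts stand beside 9.79% of all genes higher and 13.7% lower by the same limit of 1.5-fold. Among the other B7 family genes, *Cd276* was 1.54-fold higher in the tumor library (3.22 to 4.97 CPM) and *Icosl* 1.38-fold (9.79 to 13.5 CPM), the only 2 of 7 matched genes with at least 20 UMIs. Of the nectins, relatives of PVR, *Nectin1* was 2.41-fold higher (1.73 to 4.16 CPM) and *Nectin2*, *Nectin3* and *Nectin4* were within 1.33-fold. Of 5 measured genes of the TNF superfamily and its receptors, the ligands *Tnfsf9* (0.69 to 1.67 CPM) and *Tnfsf14* (0.45 to 0.80 CPM) were higher, and the receptors *Tnfrsf18* (7.85 to 3.71 CPM), *Tnfrsf4* (0.86 to 0.49 CPM) and *Cd27* (2.56 to 1.69 CPM) lower. No other galectin, nor the TIM-3 ligand *Hmgb1*, passed 1.5-fold (4 measured), with *Lgals3* at 3047 and 2765 CPM.

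Among 18 measured inhibitory receptors and ligands of myeloid cells, 4 were higher and 1 lower. *Ceacam1*, a ligand of TIM-3, was 3.51-fold higher (3.90 to 13.7 CPM), *Siglecg* 2.07-fold (0.54 to 1.12 CPM), *Cd300a* 1.75-fold (43.3 to 75.8 CPM) and *Cd200r1* 1.56-fold (72.7 to 113.6 CPM), and *Pilra* was lower (172.7 to 115.0 CPM). *Cd47*, the ligand of SIRPα, was at 821 and 810.1 CPM. Of 10 SLAM family and related genes, *Slamf7*, a self-ligand of leukocytes, was 24.3-fold higher (1.20 to 29.3 CPM), *Slamf8* 10.2-fold (0.22 to 2.21 CPM), *Ly9* 1.90-fold (28.2 to 53.7 CPM) and *Slamf1* 1.70-fold, the latter from 10 and 18 UMIs. *Slamf7* is also a leading gene of cluster F.

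Among the secreted and enzymatic suppressors, *Ptgs2*, the inducible enzyme of prostaglandin synthesis, went from 0.31 to 16.7 CPM, *Il10* from 4 to 40 UMIs and the class Ib molecule *H2-T23* from 109 to 193 CPM. *Nt5e*, which makes adenosine, was lower (26.5 to 14.2 CPM), and *Tgfb1* was at 316 and 336 CPM. The receptors of the T cell side were scarce, with 3 of 9 measured. *Pdcd1*, which encodes PD-1, had 0 and 8 UMIs, *Ctla4* 0 and 3 and *Tigit* 0 and 0, *Lag3* was lower (2.82 to 1.29 CPM) and *Cd28* was 1.80-fold higher from 11 and 21 UMIs.

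**Figure D5:**
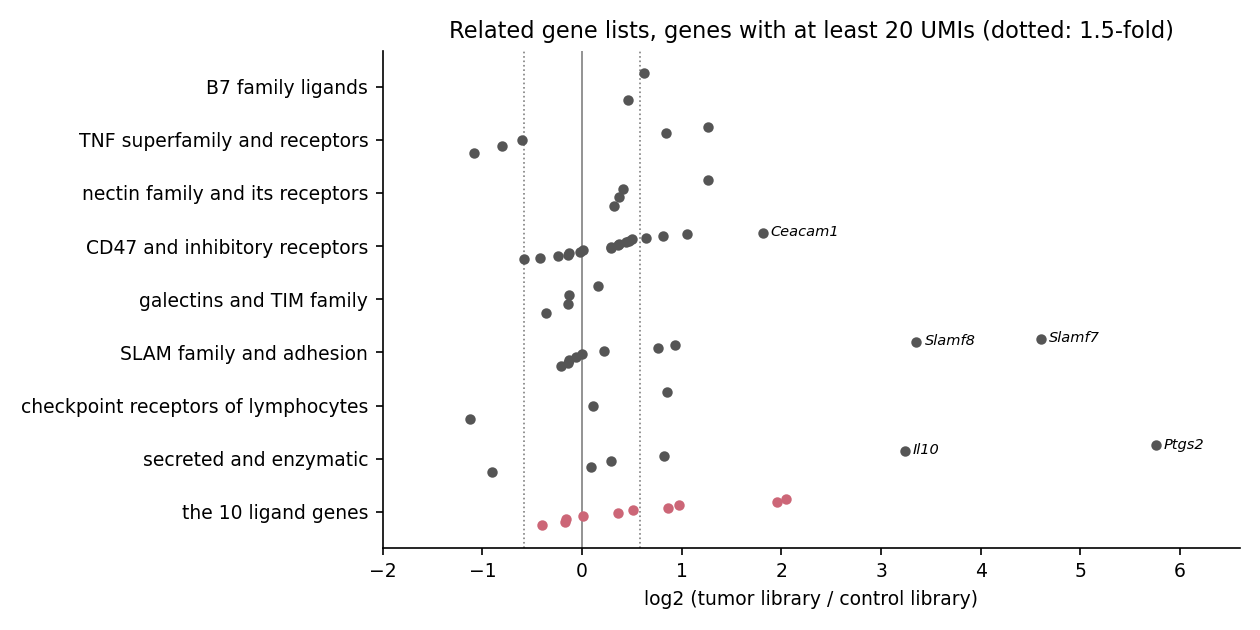
Log2 ratio of the tumor over the control library for the members and for the genes of each related list with at least 20 UMIs over both libraries, 1 point per gene, with dotted lines at 1.5-fold and 1 gene not shown. The ratios reach 5.76 for *Ptgs2* and 4.60 for *Slamf7*, and those of the members lie between -0.40 and 2.04.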

How the data were processed

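The deposited values were UMI counts per gene and cell barcode, made by the authors with Cell Ranger and not normalized. The processing notes of the submitters name Cell Ranger 4.0.0, bcl2fastq 2.20 and the mm10 build, whereas the methods of the study name a later Cell Ranger version, so the version is uncertain. The members, lists and rules were chosen with earlier results of these data known. Of 32285 gene identifiers, 32158 were matched to a symbol in the GENCODE gene name table.

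Barcodes with at least 500 genes and at most 10% mitochondrial UMIs were kept, a rule that differs from the fitted thresholds of the study and leaves other cell numbers. Levels were computed from the counts as CPM of summed UMIs with exact Poisson intervals, shares with exact binomial (Clopper-Pearson) intervals and ratios with exact conditional binomial intervals, all at 95%. A member counted as higher or lower at 1.5-fold with at least 20 UMIs over both libraries. No count model was fitted. For matched depth, UMIs of each cell were drawn at random down to 3800, close to percentile 10 of the library with fewer UMIs per cell. For shares of 0, the limit is the upper end of the exact interval.

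For clustering (scanpy 1.11.5, leidenalg 0.10.2, scikit-learn 1.9.0, Python 3.11.15), cells were brought to a total of 10000 and logged, 2000 variable genes were chosen without the members, their lists, ribosomal and receptor segment genes, and 100 components were corrected by mutual nearest neighbours (20 neighbours, kernel 15) before a Leiden partition of a graph of 15 neighbours at a resolution of 1. Clusters were rebuilt and were not mapped onto those of the study. The automatic threshold of Scrublet marked 1 cell in each library and had not worked, so doublets were kept, and cells with scores above the limit of the highest 6% (277 control and 415 tumor, since cells tied at the limit stayed) were removed only as an alternative.

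The genes named were all members, list genes past 1.5-fold (up to 8 a list), the 3 genes most correlated with a member over cluster and library units, and genes among the 5 with the largest ratio between positive and negative cells (at least 100 CPM in the positive cells). Other genes given by value, such as *Icosl*, the further nectins, *Cd47*, *Lgals3*, *Tgfb1*, *Pdcd1*, *Ctla4* and *Tigit*, are outside this rule and were chosen after their values were seen. Simulated data served to test the code. Alternatives changed the scaling, filter, fold, doublets, thinning and clustering. Some genes that this rule would name are not reported here.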

Additional observations from a re-analysis of the deposited data

Results flagged for a closer look

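*Pdcd1lg2* had ratios of opposite sign in clusters E and K. In cluster E, led by MHC class II genes, the log2 ratio (tumor to control) of *Pdcd1lg2* was 0.76 (-0.19 to 1.59, an interval that includes 0), from 123 control and 13 tumor UMIs, while in cluster K, led by *Ear1*, it was -1.13 (-2.10 to -0.22), from 36 control and 15 tumor UMIs. The difference between the clusters was not tested, since each condition was 1 library.

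The barcodes that failed the quality filter, 2300 in the control and 1509 in the tumor library, are outside the comparisons above. In them *Cd274* had a log2 ratio of 1.49 (68.1 and 191.6 CPM), *Pvr* of 2.81 (3.67 and 25.8 CPM), *Cd86* of 0.97 (19.02 and 37.2 CPM), *Lgals9* of 0.89 (18.7 and 34.6 CPM) and *Cd80* of 0.74 (25.03 and 41.8 CPM). For *Cd274* and *Cd80* the intervals (1.24 to 1.75 and 0.27 to 1.21) lay above those of the kept barcodes (0.92 to 1.02 and -0.27 to -0.07), while those of *Cd86*, *Lgals9* and *Pvr* overlapped them. *Havcr2* (-0.09), *Vsir* (0.05), *Sirpa* (-0.08) and *Pdcd1lg2* (-0.69) had intervals that included 0, and *Cd40* had no UMI. The direction of *Cd80* was thus the opposite of that in the kept barcodes.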

How the results depend on the processing

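Under the alternatives of scaling, quality filter, doublet removal and barcodes with markers of other cell types, the count of 4 members at least 1.5-fold higher and 0 lower did not change. At 2-fold it was 2. Some alternatives were chosen after the data were seen. Without clusters B, F, G and L it was 2 as well, with log2 ratios of 0.81 for *Cd274*, 1.20 for *Pvr*, 2.33 for *Cd40*, 0.48 for *Lgals9* and -0.28 for *Cd86*, so that *Lgals9* fell below 1.5-fold, and *Cd86* and *Cd80* (0.03) turned their sign. The count then held *Cd274* and *Pvr*, since *Cd40* had under 20 UMIs. Without clusters I and N, without D or without G it was 4. At matched depth the number of members with a higher share ranged from 2 to 4, with thinning at another percentile, 20 other seeds, no thinning or a limit of 2 UMIs, and none was lower. The members were not always the same. Without thinning, *Cd274* (47.7% and 63.5%) and *Lgals9* (37.0% and 46.6%) were below 1.5-fold, and *Pvr* and *Cd40* (5 and 30 barcodes) were past it. With at least 2 UMIs required, *Vsir* and *Cd86* were past it beside *Cd274* and *Lgals9*, and *Pvr* had too few cells (1 and 15). Under other clusterings, the cluster with the highest tumor level held most of the cells of the main one for 7 to 8 of 9 members. The exceptions were *Pdcd1lg2*, *Vsir* and *Lgals9*. For all the others the main one was cluster I (198 tumor cells), so their overlap shows only that cluster I was found again. The order of these members among the deeper clusters was not checked in this way. The highest cluster of another clustering could be much larger than the main one, as for *Vsir* at a resolution of 0.5 (3326 cells, against 754). The number of clusters with higher *Cd274* was 8 without the highest doublet scores and 7 with at least 1000 genes and at most 5% mitochondrial UMIs. No paired analysis was possible because each condition was 1 library. The level of *Pdcd1lg2* in its highest cluster, 21.2 CPM, was 11.2 CPM with 1000 variable genes. Depth limits *Cd40*, which had 8 and 35 UMIs, and counting intervals say nothing of the spread between mice.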
